A study of Mus musculus with 3 samples.

Results

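The Gimap genes encode the GTPases of immunity-associated proteins and lie side by side on mouse chromosome 6. The 8 members examined here were Gimap8, Gimap9, Gimap4, Gimap6, Gimap7, Gimap1, Gimap5 and Gimap3, in the order in which they stand along the mm10 genome. They span chr6:48647234-48770851, a stretch of 123618 bp, and 6 are transcribed from the plus strand while Gimap6 and Gimap3 are transcribed from the minus strand. A peak was counted as a member's own when its midpoint lay inside the GENCODE M21 body of that gene, a rule that uses no measured value. It took 23 of the 120910 peaks of the deposited table. Each of the 8 members held at least 1 of them, no peak belonged to more than 1 member, and a further 23 peaks lay between the members.

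The histone mark H3K36me3 (histone H3 trimethylated at lysine 36) was profiled by ChIP-seq, which sequences the DNA that an antibody to the mark pulls down, in regulatory T cells (Treg cells), the Foxp3-expressing T cells that restrain immune responses. By sorting for CD3, CD4 and YFP, these cells were taken from spleen and large intestine (LI) of C57BL/6 mice at steady state, all of which carried the Foxp3 reporter allele that the labels call Foxp3-YFP and the study's methods call Foxp3Cre-YFP; it places YFP and Cre recombinase under Foxp3. Cells of 7 female and 7 male mice were pooled into 1 library per tissue, and the study's general methods give mice of in vivo studies as 6 to 12 weeks old unless stated otherwise, with no age stated for this assay. Both libraries came from 1 µg of chromatin and the same antibody, and the remaining library, the input of splenic Treg cells, was not analysed here. With 1 library per tissue there is no replicate check, so spleen and LI values stand side by side without a test, and fewer cells carrying the mark cannot be told apart from less mark per cell.

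Gimap proteins are small GTP-binding proteins found mainly in lymphocytes, where the family is known for its part in the survival and turnover of naive T and B cells. Loss of Gimap5 or of Gimap1 leaves rodents short of mature T cells. H3K36me3 is written by Setd2, which travels with elongating RNA polymerase II, so the mark typically builds up from the start of an active gene towards its end.

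What the members share in sequence is the P-loop, the short stretch of a GTPase that holds the phosphates of the bound nucleotide. The 24 bases that code for it were read from the mm10 reference at the M21 coding exons of each member and are shown on the coding strand because they mark where the conserved part of each gene sits relative to the peaks. Capitals mark the codons of the first glycine and of the closing glycine, lysine and serine or threonine. Gimap8 has 3 such stretches and the other members have 1 each.
Gimap8, stretch 1, chr6:48650256-48650279: GGGaaacagggcgcaGGCAAAAGT
Gimap8, stretch 2, chr6:48656119-48656142: GGGaagcgtggtgttGGGAAAAGT
Gimap8, stretch 3, chr6:48658746-48658769: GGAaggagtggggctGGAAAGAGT
Gimap9, chr6:48677523-48677546: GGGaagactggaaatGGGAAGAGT
Gimap4, chr6:48690421-48690444: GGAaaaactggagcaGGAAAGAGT
Gimap6, chr6:48702750-48702773, minus strand: GGGaaaacaggaagcGGGAAAAGT
Gimap7, chr6:48723524-48723547: GGGaaaacaggaagtGGAAAGAGC
Gimap1, chr6:48742552-48742575: GGCaggactgggaccGGCAAGAGT
Gimap5, chr6:48752594-48752617: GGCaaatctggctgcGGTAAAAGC
Gimap3, chr6:48765887-48765910, minus strand: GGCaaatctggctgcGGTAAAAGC

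Gimap5 and Gimap3 carried the same letters at all 24 positions, while the pairs of the 10 stretches shared between 12 and 24 identical bases. Of the 10 stretches, 9 lay inside an H3K36me3 peak and 8 inside the strongest peak of their gene. The exception was Gimap9, whose stretch lay just before its peak at chr6:48677570-48678736. Because copies of a family can share reads, every 75-base word of the span was compared with the rest of the span, 75 nt being the read length. In the peaks of Gimap5 and of Gimap3, 83 words each (2.0% and 1.38% of their words) occurred more than once in the span, and in the peaks of the other 6 members there were 0. Copies elsewhere in the genome were not searched.

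The deposited values are the average coverage of a peak in RPKM (read density per kilobase, corrected for library depth), and levels per length below are means over a member's peaks weighted by peak length. From the smallest steps in the values, and with coverage bins assumed to be 20 bp, the depth was inferred as about 29600000 mapped reads for spleen and 38100000 for LI. Intervals in brackets are approximate 95% counting intervals that take each read as covering 200 bp; they cover counting error only. T cell and Treg markers had peaks in 7 of 7 genes and summed to 681.0 RPKM in spleen and 713.2 in LI, with Ctla4 highest in log2 ratio of LI over spleen (0.59) and Cd3d lowest (-0.46). Markers of other cells had peaks in 3 of 6 genes for B cells (Cr2 and Ms4a1 were among those with none), 2 of 6 for myeloid cells (Adgre1, Itgam and Lyz2 were among those with none), 1 of 6 for endothelium (Pecam1 did, and Cdh5, Egfl7, Emcn, Kdr and Tek had none) and 2 of 6 for intestinal epithelium (Cdh1, Cdx2, Krt20 and Krt8 had none). Their summed values in spleen and LI were 60.2 and 53.4 RPKM, 29.7 and 31.3 RPKM, 911 and 499.5 RPKM, and 29.9 and 59.8 RPKM in that order, and their part in the results was not tested. The endothelial values were those of Pecam1 alone, a sum over 65 peaks. Its level per length was 17.2 RPKM in spleen and 9.59 RPKM in LI.

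All 8 Gimap genes held at least 1 H3K36me3 peak, among 11946 genes of the annotation that did. The share of all annotated genes with a peak is not given here, so counts of genes with a peak have no background beside them. Their levels per length lay between 12.1 and 30.2 RPKM in spleen and between 10.1 and 31.4 RPKM in LI. The peaks were merged over both tissues, so a value in a library does not show that the peak was called in that tissue. The median over protein-coding genes that passed the filter was 12.7 RPKM in spleen and 13.5 RPKM in LI. Gimap1, whose protein is needed for mature lymphocytes to persist, had the highest level, with 30.2 RPKM in spleen [27.3, 33.4] and 31.4 RPKM in LI [28.8, 34.3]. Gimap6, linked to autophagy in T cells, followed with 29.7 RPKM in spleen and 26.6 RPKM in LI. Gimap3, the nearest relative of Gimap5 in the P-loop, had 23.8 and 21.3 RPKM, and Gimap4, which has been tied to the pace of T cell death, had 23.1 and 19.97 RPKM. Gimap8, the member with several GTPase domains, had 18.6 and 18.1 RPKM.

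The lowest levels belonged to Gimap5, Gimap7 and Gimap9. Gimap5 had 14.9 RPKM in spleen and 15.7 RPKM in LI. Gimap7, known for stimulating GTP hydrolysis in a partner Gimap protein, had 13.8 RPKM in spleen [11.8, 16.1] and 17.4 RPKM in LI [15.5, 19.7]. Gimap9 had 12.1 RPKM in spleen [8.91, 16.4] and 10.1 RPKM in LI [7.50, 13.5], which placed it at the 44.3rd and the 20.1st percentile of protein-coding genes. The order of the 8 members was the same in both libraries except that Gimap5 and Gimap7 changed places. In spleen, the counting intervals of neighbours in that order were apart between Gimap6 and Gimap3, Gimap4 and Gimap8, and Gimap8 and Gimap5, and overlapped for the other 4 pairs. In LI they were apart between Gimap6 and Gimap3 and between Gimap5 and Gimap9, and overlapped for the other 5 pairs.

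**Figure D1:**
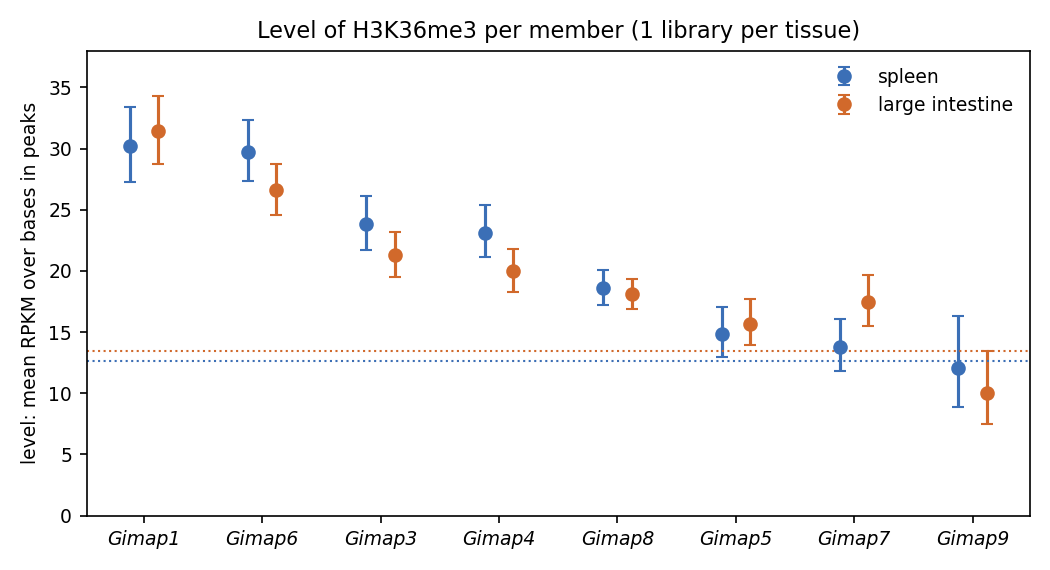
H3K36me3 level per length (length-weighted mean RPKM over the peaks of the gene) of the 8 Gimap genes in the spleen and LI libraries, 1 library each, with approximate 95% counting intervals as bars. Gimap1 is highest and Gimap9 lowest in both libraries, and the range runs from 12.1 to 30.2 RPKM in spleen and from 10.1 to 31.4 RPKM in LI.

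Elsewhere in the genome, likeness in level was searched among 4165 protein-coding genes with at least 200 RPKM summed over both libraries. No Gimap gene reached that sum. The members' median levels were 20.9 RPKM in spleen and 19.0 in LI. By Euclidean distance of the log2 levels over the 2 libraries, the 5 nearest of the searched genes were Il6st, Wipf1, Nap1l4, Bcl11b and Agpat3. Il6st, a shared receptor chain of the interleukin-6 family, had 20.99 and 18.7 RPKM, and Bcl11b, a transcription factor of the T cell lineage, had 21.3 and 18.8 RPKM. With 2 libraries this likeness rests on 2 values per gene.

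Between spleen and LI, the Gimap genes differed little. The values of all 23 member peaks summed to 357.4 RPKM in spleen and 353.1 RPKM in LI. After each library was scaled to its total over all peaks, the log2 ratio of LI over spleen was -0.06 [-0.18, 0.05] with a pseudocount of 0.5 RPKM. Over the 10886 genes with at least 20 RPKM in both libraries together, the median of that ratio was 0.0049 and the quartiles were -0.20 and 0.24. No member passed 2-fold in either direction, where 3.42% of those genes were past 2-fold in LI and 2.04% in spleen. Gimap7 and Gimap1 were higher in LI and the other 6 members in spleen, with 50.7% of genes higher in LI. The direction of 4 members turned with the peaks used or the GC correction: Gimap1 with the strongest peak alone, with peaks of 1 kb or more and with the GC correction, Gimap5 with those peak sets, with length weighting and without peaks shared by several genes, Gimap8 with the GC correction, and Gimap8 and Gimap4 when peaks went to the nearest transcript start. No direction turned under the 4 other scalings tried.

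Gimap7 had the highest ratio of the 8 members when peaks were assigned by gene body. By nearest transcript start its ratio was 0.088, below those of Gimap1 (0.42) and Gimap4 (0.18). Its 3 peaks summed to 35.1 RPKM in spleen and 46.4 RPKM in LI, a log2 ratio of 0.35 [0.045, 0.66], and it was the member whose interval lay above 0. Each peak was higher in LI, from 9.81 to 12.9 RPKM, from 7.04 to 11.7 RPKM and from 18.2 to 21.8 RPKM along the gene, though the interval of the strongest one reached from -0.13 to 0.54.

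Gimap6 held a single peak of 6245 bp with 29.7 RPKM in spleen and 26.6 RPKM in LI. Its log2 ratio was -0.20 [-0.37, -0.037], and it was the member whose interval lay below 0. The largest peak of Gimap4, which is 6225 bp long, went the same way with 23.9 RPKM in spleen and 20.6 RPKM in LI, at -0.25 [-0.44, -0.068]. With its short first peak, Gimap4 as a whole had 35.6 and 30.8 RPKM and a log2 ratio of -0.25 [-0.62, 0.11].

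The intervals of the remaining 5 members crossed 0. How many of all genes have an interval off 0 is not given here. Over all 120910 peaks, 6501 had an interval above 0 and 6111 below 0, beside 0 and 2 of the 23 member peaks. Gimap9 had 12.1 RPKM in spleen and 10.1 RPKM in LI in its 1 peak, a log2 ratio of -0.30 [-0.91, 0.31]. Gimap3 had 63.9 and 56.9 RPKM in 4 peaks, a log2 ratio of -0.21 [-0.49, 0.069]. These values leaned to spleen, and the intervals of these sums, which do not weight peaks by length, crossed 0. Weighted by length, the log2 ratios were -0.31 for Gimap9 and -0.21 for Gimap3, and no interval is given for those.

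Gimap8 had 69.4 and 68.2 RPKM in 5 peaks, a log2 ratio of -0.07 [-0.31, 0.16]. Gimap5, the member best known for T cell survival, had 67.8 and 67.2 RPKM in 5 peaks, a log2 ratio of -0.06 [-0.45, 0.34]. Gimap1 had 43.9 and 46.9 RPKM in 2 peaks, a log2 ratio of 0.05 [-0.18, 0.28]. For these 3 genes the libraries lay closest together; the interval of Gimap5 was the widest of the 3.

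**Figure D2:**
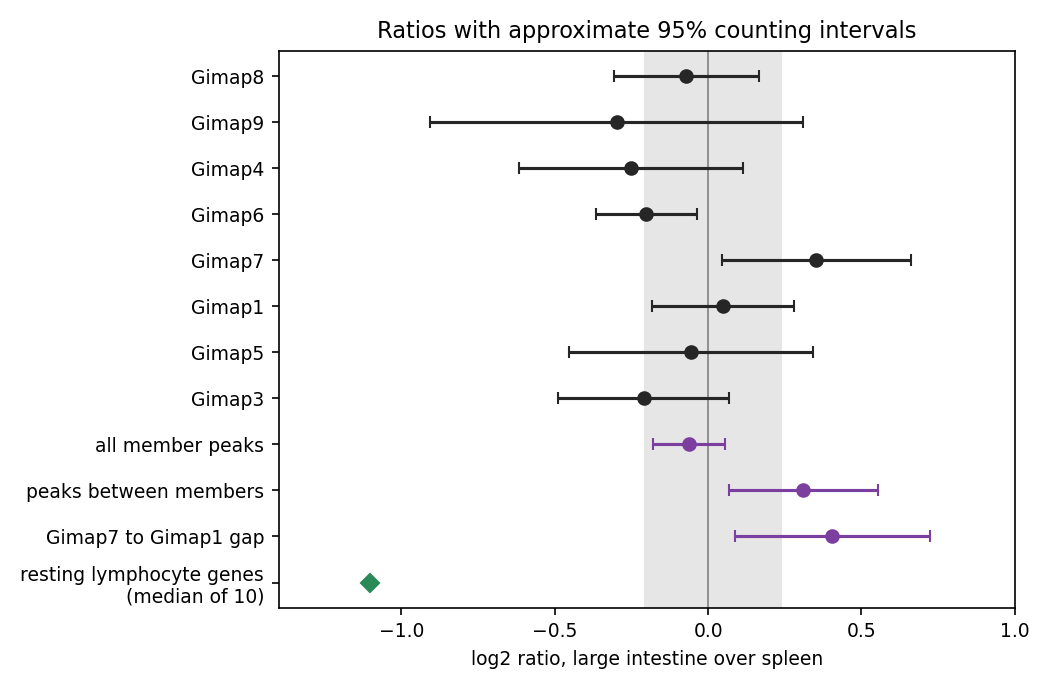
Log2 ratio of LI over spleen for the 8 Gimap genes (black), for the summed peaks in members, between members and from Gimap7 to Gimap1 (purple), and as the median of 10 resting lymphocyte genes (green, no interval), after scaling each library to its total. Bars are approximate 95% counting intervals and the grey band runs between the quartiles of all genes that passed the filter. The members lie between -0.30 and 0.35, and the intervals of Gimap7 and Gimap6 alone among them leave out 0. The share of all genes with such intervals is not shown.

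Seen peak by peak, 10 of the 23 member peaks were higher in LI and 13 in spleen, with log2 ratios from -0.46 to 0.65, and 0 passed 2-fold in either direction. Over all peaks of the table, 9.0% were past 2-fold in LI and 9.65% in spleen, but that share depends on peak length. Among peaks under 1 kb, 11.2% were past 2-fold in LI, 12.3% were past 2-fold in spleen and 48.2% were higher in LI. Among peaks of 1 kb or more, those shares were 1.78%, 0.799% and 51.1%. Of the members' peaks, 12 were 1 kb or longer, with 5 higher in LI and 7 in spleen, and 11 were shorter, with 5 higher in LI and 6 in spleen. All 46 peaks of the span lay between the 5th and the 95th percentile of all peaks of their length class.

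**Figure D3:**
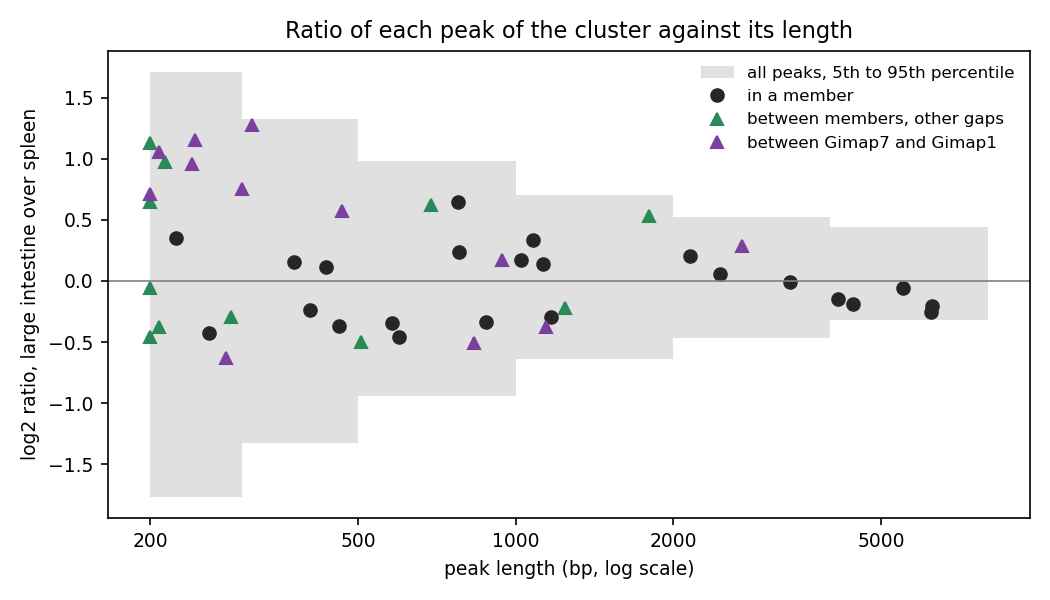
Log2 ratio of LI over spleen of each of the 46 peaks of the span against peak length in bp (log axis), over the 5th to 95th percentile range of all peaks of the same length class. The member peaks and the peaks between members all fall inside the range, which narrows from short to long peaks.

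Along the gene bodies, the mean level over the members was low at the start and high towards the end in both libraries. Each body was divided into 10 equal parts from its start, counting bases outside peaks as 0. Each base in a peak took the mean of that peak, so changes inside a peak cannot be seen. Averaged over the 8 members, the first part had 1.44 RPKM in spleen and 1.45 RPKM in LI. The fifth had 14.7 and 13.9 RPKM, and the ninth, the highest, had 22.9 and 22.1 RPKM. No peak covered any part of the first of the 10 parts in 6 members. Gimap8 departed from the mean: it had 10.2 RPKM in both libraries in the first part, 19.3 RPKM in spleen and 19.1 RPKM in LI in the second, and 7.79 and 6.40 RPKM in the last. The strongest peak of each of the 8 members had its midpoint between the middle of the body and its end, and was at least 1 kb long.

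**Figure D4:**
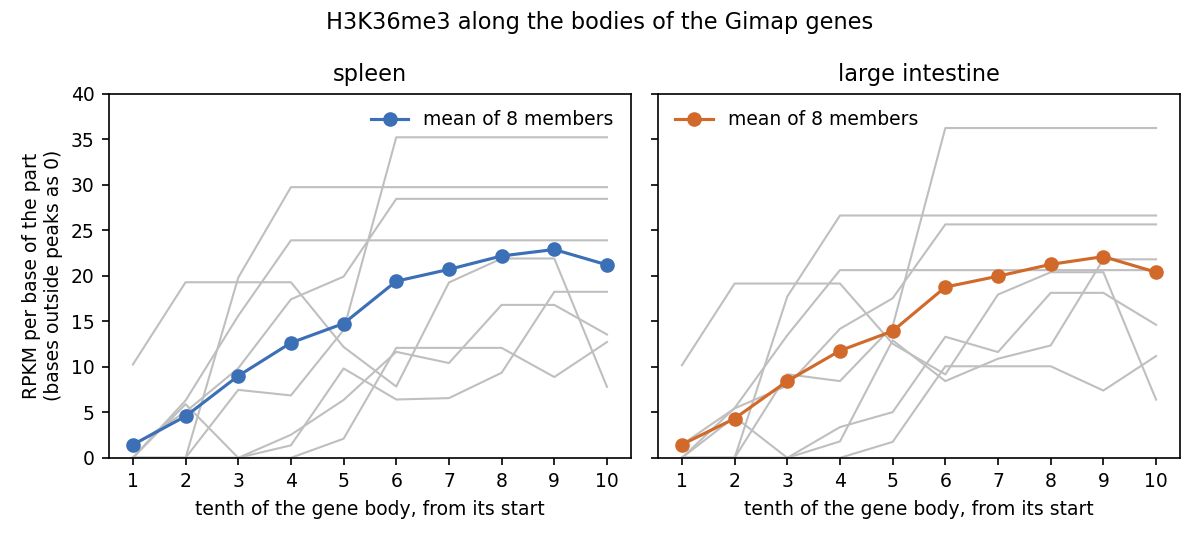
Mean H3K36me3 in RPKM over 10 equal parts of the body, from start to end, for the 8 Gimap genes in the spleen and LI libraries, with bases outside peaks counted as 0. Each base in a peak takes the mean of that peak. Both libraries rise from 1.44 and 1.45 RPKM in the first part to 22.9 and 22.1 RPKM in the ninth.

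No member had a peak over its start, and the first peak began between 538 bp (Gimap3) and 2322 bp (Gimap7) downstream of it. At the other end, 6 members had a peak that ran across the end of the gene by 476 bp (Gimap4) to 1152 bp (Gimap6), while those of Gimap8 and Gimap5 stopped short of it. In the RefSeq promoter windows, which run from 250 bases before to 50 after a start, 0 of 9 windows of the 8 members met a peak, beside 1477 of 32851 windows (4.50%) over all genes. The midpoints of the 23 member peaks lay in a coding exon in 6 cases, in a non-coding exon in 3 and in an intron in 14.

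The share of each gene body covered by peaks was highest in Gimap8 (85.3%), Gimap3 (84.9%) and Gimap4 (81.9%). It was 76.7% in Gimap6, 70.4% in Gimap1, 56.5% in Gimap5, 54.6% in Gimap7 and 48.8% in Gimap9. Together 73.1% of the bases in member bodies were covered, against 25.6% of the bases between them. The bodies take up 45.3% of the span and held 76.4% of its H3K36me3 signal in spleen and 73.7% in LI.

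**Figure D5:**
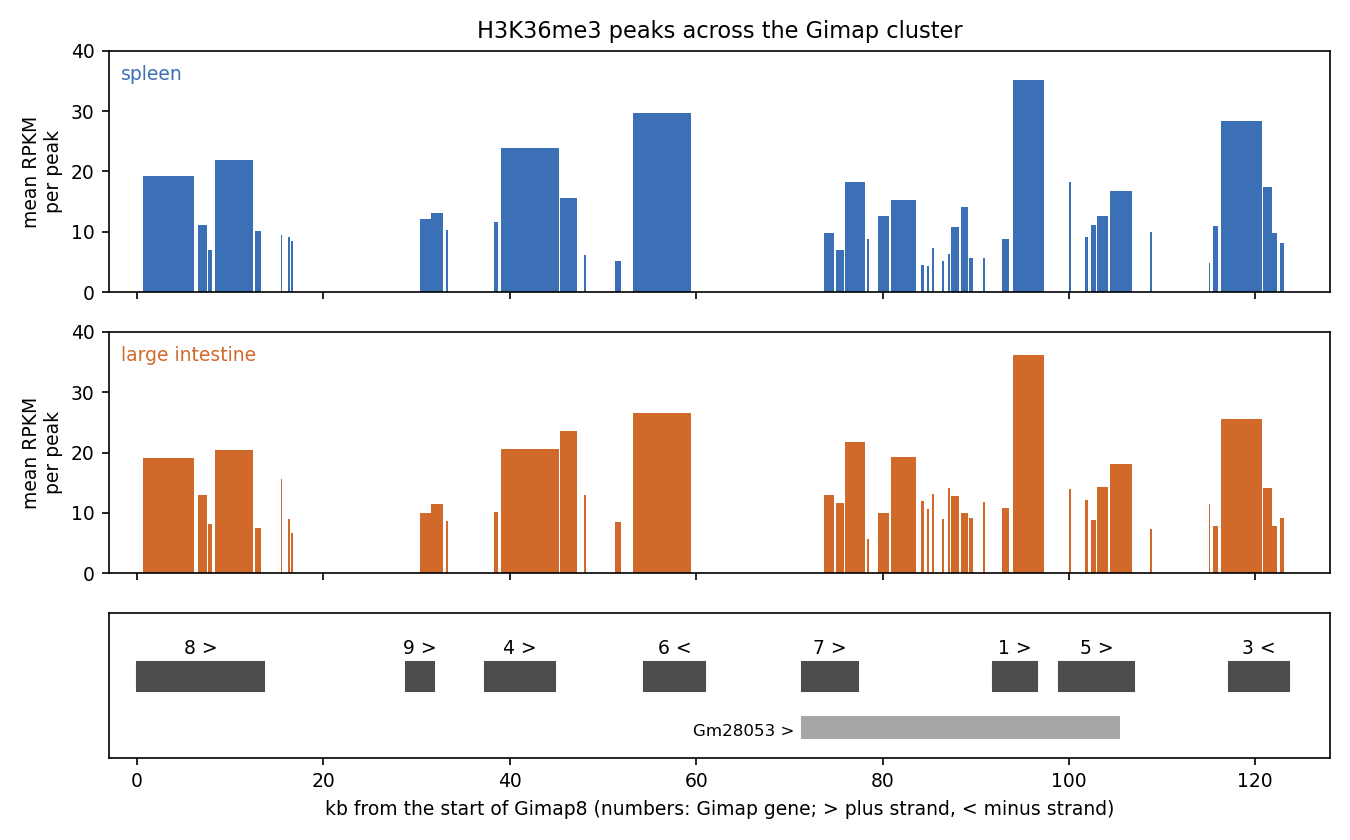
H3K36me3 peaks across the Gimap span in the spleen and LI libraries, with height in RPKM against distance in kb from the start of Gimap8 and the 8 gene bodies drawn with their direction of transcription. Peaks are tallest towards the ends of the gene bodies, and 12 peaks, 10 of them under 1 kb, lie between Gimap7 and Gimap1 inside Gm28053 (grey bar).

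The 23 peaks between the members summed to 203.8 RPKM in spleen and 260.8 RPKM in LI, a log2 ratio of 0.31 [0.067, 0.55], with 14 higher in LI and 9 in spleen. Of the 23, 19 were under 1 kb and gave 0.37 [0.049, 0.69], while the 4 of 1 kb or more gave 0.14 [-0.085, 0.36], and weighting all 23 by length gave 0.22. Of these peaks, 4 were past 2-fold in LI and 0 in spleen, and each of the 4 was under 1 kb. In that class, 11.2% of all peaks were past 2-fold in LI and 48.2% were higher in LI. The difference between the ratios inside and between members was not tested.

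Over 7 spaces between neighbouring genes, 5 held a peak midpoint. From Gimap4 to Gimap6 there were 3 peaks, all higher in LI, with 27.0 RPKM in spleen and 45.1 RPKM in LI and a log2 ratio of 0.68 [0.18, 1.19]. The largest of them, at chr6:48692656-48694457 just past the end of Gimap4, had 15.7 RPKM in spleen and 23.6 RPKM in LI, at 0.53 [0.15, 0.91]. The spaces from Gimap8 to Gimap9, from Gimap9 to Gimap4 and from Gimap5 to Gimap3 had ratios of 0.16, -0.26 and 0.01 with 3, 2 and 3 peaks, and all of their intervals crossed 0.

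The space from Gimap7 to Gimap1, 14417 bp long, held 12 peaks, more than any other, and 59.7% of its bases were covered. Its peaks summed to 100.5 RPKM in spleen and 137.5 RPKM in LI, a log2 ratio of 0.40 [0.087, 0.72], with 9 higher in LI and 3 in spleen. The 3 past 2-fold had 4.50, 4.37 and 6.30 RPKM in spleen and 12.0, 10.7 and 14.1 RPKM in LI, and all of their intervals crossed 0. These 3 were 313, 244 and 208 bp long. Of all peaks under 1 kb in the genome, 48.2% were higher in LI and 11.2% were past 2-fold in LI. In this space the peaks under 1 kb gave 0.53 [0.11, 0.94], whereas the 2 of 1 kb or more gave 0.024 [-0.29, 0.34], and weighting the peaks by length gave 0.20.

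The space lies inside Gm28053, a protein-coding gene of the annotation at chr6:48718607-48752644 whose body spans Gimap7, Gimap1 and most of Gimap5. It held 21 peaks, of which 9 belonged to members and 12 to the space, so the signal of Gimap7, Gimap1 and most of Gimap5 cannot be told apart from that of Gm28053. Gm28053 had a level of 16.4 RPKM in spleen and 18.5 RPKM in LI and a log2 ratio of 0.23 [0.043, 0.43]. The antisense gene Gimap1os shared 1 peak with Gimap1 (8.73 RPKM in spleen and 10.7 RPKM in LI), and the lincRNA gene 4833403J16Rik held 1 peak past the end of Gimap5 (9.96 and 7.35 RPKM). ChIP-seq carries no strand, so those shared peaks could not be given to one gene or the other.

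The DNA under the short peak at chr6:48732001-48732244 is shown because, among the 13 peaks of at most 300 bp between members, it had the highest ratio, 1.15 on the log2 scale. It is 244 bp long with a GC content of 37.7%, beside a median of 46.5% over all peaks, and its values correspond to about 3.16 reads in spleen and 9.92 in LI. No letters are in capitals because no motif was searched in it.
Peak in the space from Gimap7 to Gimap1, plus strand: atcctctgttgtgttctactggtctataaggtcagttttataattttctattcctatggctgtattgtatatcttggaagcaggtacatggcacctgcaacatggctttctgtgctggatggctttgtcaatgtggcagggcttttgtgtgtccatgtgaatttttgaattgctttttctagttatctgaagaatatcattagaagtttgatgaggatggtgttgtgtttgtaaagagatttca

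Of the 5 protein-coding genes on each side of the cluster, 5 of 10 held a peak, 4 before it and 1 after it. These were higher in LI, beside 50.7% of all genes that passed the filter, but Repin1, Gm44965 and Gm45021 count the same peak. Before the cluster, AI854703, the direct neighbour of Gimap8, had 0 peaks. Zfp775, a zinc finger gene, had 23.6 RPKM in spleen and 34.8 RPKM in LI, at 0.51 [0.23, 0.78]. Repin1, Gm44965 and Gm45021 shared 1 peak with 14.5 and 28.7 RPKM, at 0.92 [0.42, 1.42].

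Past Gimap3, Tmem176b, a membrane protein gene expressed in several immune cell types, had 3 peaks with 9.54 RPKM in spleen and 46.3 RPKM in LI, a log2 ratio of 2.18 [1.03, 3.32]. Its level per length was 2.94 RPKM in spleen and 15.6 RPKM in LI, so that in spleen it lay below, and in LI within, the range of the Gimap genes. The 3 peaks of Tmem176b were only 327, 280 and 215 bp long, with 1.73, 2.58 and 5.23 RPKM in spleen. Of all peaks under 1 kb, 11.2% were past 2-fold in LI. Tmem176a, Aoc1, 1600015I10Rik and Doxl2 had 0 peaks.

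Genes of the resting lymphocyte program were set beside the cluster because Gimap proteins are best known from naive lymphocytes. The list held 10 genes, and all 10 were higher in spleen, while 50.7% of all genes that passed the filter were higher in LI. The median log2 ratio of the list was -1.10, while the 8 Gimap members had a median of -0.14. On that list 5 genes were past 2-fold in spleen and 0 in LI, beside 2.04% and 3.42% of all genes that passed the filter. Foxo1, a transcription factor of naive T cells, was highest at -0.11, with 471.4 and 449.6 RPKM.

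Other GTPases of immunity, the interferon-inducible Irg, Gbp and Mx families, had peaks in 17 of 19 genes (Gbp11 and Gvin1 had none). Of the 16 that passed the filter, 13 were higher in spleen and 3 in LI, beside 50.7% of all genes that passed higher in LI. The median log2 ratio of the 16 was -0.20. Of the 16, 0 were past 2-fold, beside 2.04% of all genes that passed in spleen and 3.42% in LI. Several of these gene bodies overlap, so some peaks count for more than 1 gene. Gbp6 was highest at 0.01, with 134 RPKM in spleen and 140 RPKM in LI. Mx1, an antiviral GTPase, was lowest of the 16 at -0.91 [-1.27, -0.54], with 121 RPKM in spleen and 66.1 RPKM in LI. The gene with a peak that missed the filter, at 18.1 RPKM over both libraries, had a log2 ratio of -1.96.

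The study lists genes expressed more in splenic than in colonic Treg cells, chosen on expression data of other samples. Gimap3, Gimap5, Gimap7 and Gimap9 are on that list, the other 4 members are not, and 0 are on the colonic list. The 13 peaks of the listed members summed to 178.8 RPKM in spleen and 180.6 RPKM in LI, at -0.03 [-0.22, 0.16]. The 10 peaks of the others summed to 178.6 and 172.5 RPKM, at -0.10 [-0.23, 0.037]. Over the whole splenic list, 375 genes passed the filter, of which 319 were higher in spleen, 44 were past 2-fold in spleen and the median was -0.32. Of all genes that passed, 50.7% were higher in LI and 2.04% were past 2-fold in spleen. Gimap3 and Gimap9 lay on the spleen side, Gimap5 near 0 and Gimap7 on the LI side.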

How the data were processed

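Single-end reads (75 nt) were aligned by the authors to mm10, and peaks were called per tissue with MACS2 at p 0.01 against the input. They merged the peaks of both tissues with bedtools, made RPKM coverage tracks with bamCoverage and averaged them over each merged peak with multiBigwigSummary. The submitters' processing notes name Bowtie2, FastQC, MACS2 and bedtools, and how reads with several matches were treated is not given in the sources used here. The deposited values are therefore mean RPKM per peak, although the table is labelled as raw counts. In each library the product of value and peak length came in whole steps, within 0.05 of a step, for 100% of the low products checked (83660 in spleen and 74578 in LI). Depth was inferred from that step with bins taken as 20 bp. Reads per peak were not recovered, so no count test was run.

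Peaks were assigned to M21 bodies by their midpoints. Peak values were summed per gene, scaled by the library totals over all peaks (a log2 offset of 0.046), and log2 ratios were taken with a pseudocount of 0.5 RPKM, which understates the change of low genes. Genes with less than 20 RPKM over both libraries were left out of counts over genes. Counting intervals treat reads as independent molecules. Named genes were the 8 members, other genes in the span with a peak, 5 neighbours on each side, the 5 genes nearest in level, and the highest and lowest ratio of the resting lymphocyte, GTPase and T cell lists, except that some named genes are not reported here. The members and lists were chosen with earlier results of these data known. Scripts used python 3.11.15, numpy 2.4.6 and pandas 2.3.3, with figures by matplotlib 3.10.9. The ratio and its interval were also run on simulated reads drawn from the same counting model. That run checks the calculation only, because it takes the 200 bp per read as given and includes neither extra spread nor the scaling. Alternatives covered scaling, pseudocount, weighting, peak assignment, peak length, GC content and filters.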

Additional observations from a re-analysis of the deposited data

How the results depend on the processing

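Over 94 recomputed member ratios, 91 stayed within their counting interval, 3 moved and 10 changed sign, all 10 by values whose intervals in the original assignment crossed 0. The ratio over all members ranged from -0.16 to 0.11 and stayed within its interval in 12 of 13 recomputations. Assigning peaks to the nearest transcript start gave the exception, 0.11 over all members, and moved Gimap4 to 0.18, Gimap6 to -0.036 and Gimap1 to 0.42, with Gimap7 at 0.088, and the cause was not tested. With the GC correction the members ranged from -0.27 to 0.47. All alternatives for the space from Gimap7 to Gimap1 were chosen after seeing the data: its ratio was 0.024 with peaks of 1 kb or more, 0.20 weighted by length and 0.58 with the GC correction. At 1.5-fold, 1 member peak was past the threshold in LI. Genes past 2-fold in LI numbered 623 without the filter and 70 at 200 RPKM, beside 372. In spleen they numbered 459 and 39, beside 222. No paired analysis was possible because each tissue has 1 library, and for the same reason no replicate could be left out. Depth limits the short peaks most, where a few reads set a ratio.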
